A study of Rattus norvegicus with 6 samples.

Results

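Transgelin (*Tagln*) and 9 other genes of actin-based contraction were followed in rat hippocampal neural stem cells (NSCs) after knockdown of *Derl1*. The list was chosen by function around *Tagln*, which was picked because its value is lower in the knockdown, and holds *Tagln*, *Acta2*, *Cnn1*, *Cnn2*, *Myl9*, *Tpm1*, *Tpm2*, *Srf*, *Actn1* and *Vcl*. Of these 10 genes, 9 are among the 17315 rows of the expression tables, and *Cnn2* was not analysed here. The measurement is RNA-seq, given as TPM, which is a share of each sample's transcripts, corrected for their length and scaled to the same sum in each sample.

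The cells are the HCN line, adult hippocampal NSCs cloned from adult rats. One group received a control Stealth siRNA duplex (siControl) and the other a single Stealth duplex against *Derl1* (siDerl1), a gene of the endoplasmic reticulum whose product helps to clear misfolded proteins. Each group has 3 samples, numbered 1 to 3, and all 6 were kept in proliferation medium and then for 2 days with BMP4, which brings these cells to quiescence. The comparison asks what loss of Derlin-1 changes in NSCs entering quiescence, and with 1 duplex an effect of *Derl1* loss and an effect of that duplex cannot be told apart.

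Serum response factor (SRF) is a transcription factor that binds a short DNA element, the CArG box. With myocardin-related cofactors (MRTFs), which are held back by free actin monomers, it drives genes of the actin cytoskeleton, and with ternary complex factors (TCFs) it drives immediate early genes. *Tagln*, *Acta2* and *Cnn1* are known as smooth muscle genes of this program, whereas tropomyosins, actinin and vinculin also serve the cytoskeleton of most other cells.

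*Derl1* was measured at 122, 132 and 128 TPM in the siControl samples and at 44.9, 70.8 and 74.0 TPM in the siDerl1 samples, a mean that is 50.2% lower (limma adjusted p = 0.497, and 0.00884 with the sample number as a block, which became 0.104 with no filter and 0.229 with no trend). Between 11641 and 11808 rows had a value above 0 in each sample. The sequencing depth is unknown, so no counting error can be given. The tables also list some genes that every cell uses at 0, among them 4 of 91 rows of ribosomal protein genes in at least 1 sample, so a value of 0 is given here only as listed. All 10 NSC markers examined, *Sox2* and *Nes* among them, were at or above 1 TPM in every sample, with a summed level of 5060 to 7850 TPM in siControl and 5470 to 7950 TPM in siDerl1. *Gfap*, a filament gene of radial glia-like stem cells and astrocytes, had means of 34.5 ± 10.8 and 53.0 ± 11.5 TPM (SD, n = 3 each), past the study's upper limits, with a limma adjusted p of 0.704 (0.0219 with the block, and 0.111 and 0.229 where the blocked fit had no filter or no trend). It was not past the limits without siControl 2, siControl 3 or siDerl1 1. *Nes*, which encodes the stem cell filament nestin, was lower in every siDerl1 sample, with means of 125 ± 12.2 and 104 ± 6.22 TPM (SD, n = 3 each) and an adjusted p of 0.704 (0.0899 with the block). Of the mural and smooth muscle cell markers, 7 of 10 were under 1 TPM in every sample. *Rgs5* and *Kcnj8*, which define pericytes, were listed at 0 throughout, and the summed level of that list lay between 174 and 202 TPM in siControl and between 173 and 189 TPM in siDerl1, nearly all of it from *Mcam*. Of the fibroblast markers 5 of 8, and of the endothelial markers 7 of 8, were under 1 TPM in every sample. *Col3a1*, *Dcn* and *Lum* of the former and *Cdh5*, *Cldn5* and *Emcn* of the latter were listed at 0 in every sample, and the summed levels were 91.8 to 128 against 88.1 to 120 TPM and 2.23 to 2.87 against 2.20 to 2.94 TPM. Of these 26 markers, 4 were higher and 4 lower in every siDerl1 sample than in any siControl sample. Over all genes tested the shares were 5.09% higher and 8.52% lower. Most of the 26 had a mean under 1 TPM and were not tested, so the counts and shares are not a like comparison. The higher ones were the mural marker *Pdgfrb*, with means of 0.393 and 1.25 TPM, and the fibroblast markers *Col1a1*, *Col1a2* and *Fbln1*, the last with means of 54.1 and 64.6 TPM. The lower ones, *Anpep*, *Des*, *Cspg4* and *Tek*, were under 1 TPM throughout. *Pdgfra* had means of 50.3 and 36.4 TPM, with groups that overlap. Their part in the results was not tested.

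The levels of the 9 genes span a wide range, and those that mark smooth muscle are at its lower end. In order of mean TPM over all samples they run *Tpm1*, *Actn1*, *Srf*, *Myl9*, *Vcl*, *Tagln*, *Tpm2*, *Cnn1* and *Acta2*. The samples of *Myl9* and *Vcl*, of *Tagln* and *Tpm2*, of *Tpm2* and *Cnn1*, and of *Cnn1* and *Acta2* overlap, so these neighbors are not set apart by their spread. *Acta2*, *Cnn1* and the smooth muscle myosin *Myh11* were listed under 1 TPM in every sample, whereas the nonmuscle myosins *Myh9* and *Myh10* had siControl means of 90.3 ± 10.4 and 64.2 ± 2.78 TPM (SD, n = 3 each).

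**Figure D1:**
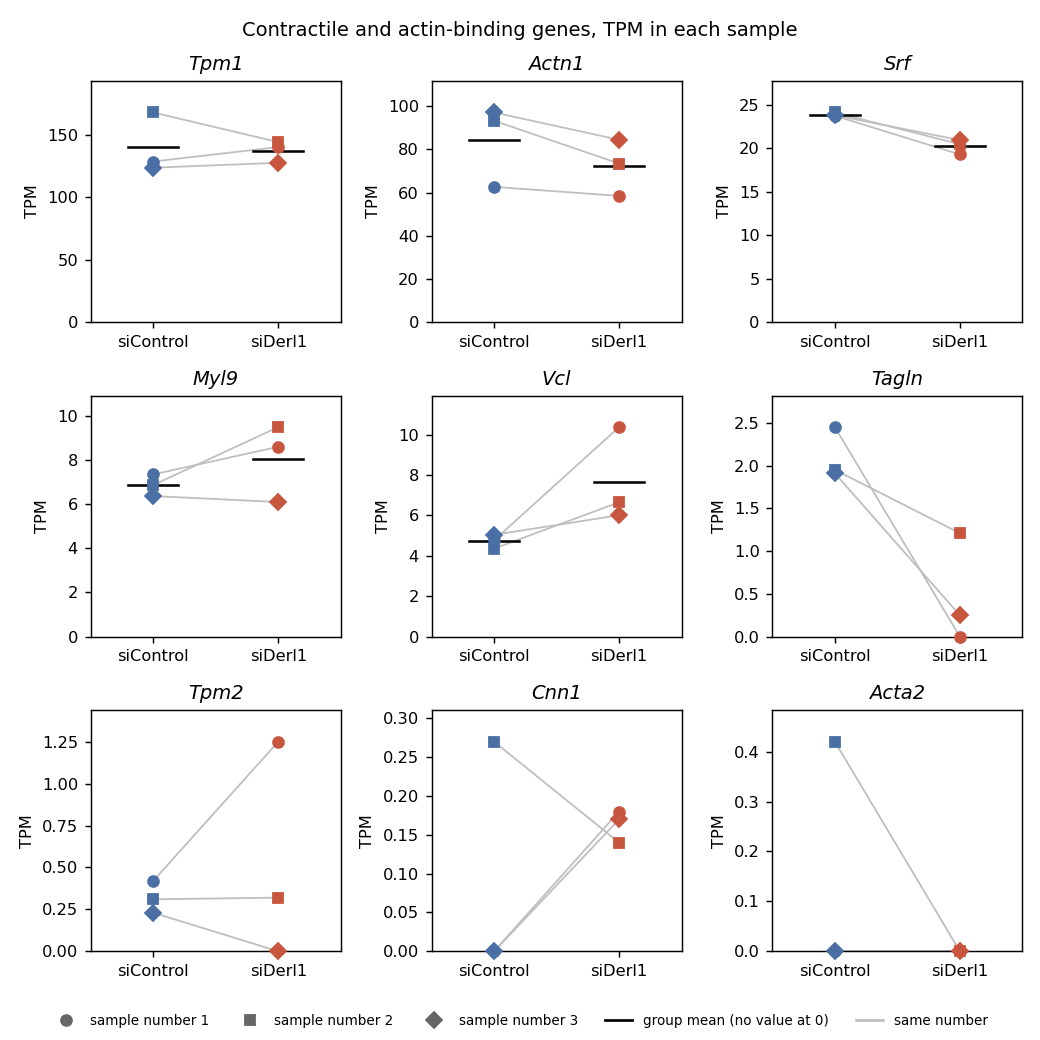
TPM of the 9 genes (vertical axes, each on its own linear scale from 0) in the 3 siControl (blue) and 3 siDerl1 (red) samples. Symbols mark the sample number, gray lines join samples of the same number, and bars give group means for genes with no value at 0. *Tagln* and *Srf* are lower and *Vcl* is higher in every siDerl1 sample, and *Acta2* is at 0 in all but 1 sample.

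*Srf*, the transcription factor itself, was slightly lower in siDerl1. It was measured at 23.7, 24.1 and 23.8 TPM in siControl and at 19.3, 20.5 and 20.9 TPM in siDerl1. All siDerl1 samples lie below all siControl samples. The mean was 23.9 ± 0.204 (SD, n = 3) in siControl and 20.2 ± 0.849 (SD, n = 3) in siDerl1, 15.3% lower, which is short of the study's limit of a fold change below 0.8, applied here to the ratio of mean TPM. In these bulk samples, fewer cells with a transcript and less of it per cell cannot be told apart. The difference was -0.23 on the log2(TPM + 1) scale (SE 0.09), lower in 3 of 3 same-numbered pairs, and limma gave an adjusted p of 0.705, with all genes tested in the adjustment (0.292 where the replicate number was a block). An exact permutation test of the 6 values gave a two-sided p of 0.1, the smallest that 3 samples against 3 allow. Groups that do not overlap always give that value, so it adds nothing to the lack of overlap.

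The promoter of *Srf* itself carries the element that its product binds. The promoter windows below are from RefSeq (assembly GRCr8), which lists 250 bases before and 50 after a gene's start, and are shown to compare the box letters with the RNA values of the same genes. A CArG box here is CC, then 6 bases that are each A or T, then GG, which reads the same on both strands. Capitals mark the box, and each line is 5′ to 3′ on the gene's strand.
Srf, chr9:21923971-21924040, + strand: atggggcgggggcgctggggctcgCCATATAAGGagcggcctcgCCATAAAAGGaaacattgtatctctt
Lima1, chr7:132880518-132880577, - strand: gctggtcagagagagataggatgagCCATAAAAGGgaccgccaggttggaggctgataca
Actg1, chr10:106121007-106121066, - strand: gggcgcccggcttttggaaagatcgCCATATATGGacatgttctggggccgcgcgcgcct

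The *Srf* boxes begin 81 and 61 bases before the start that the promoter table uses. Of all 33469 promoters in the table, 1.64% hold a CArG box and 0.0209% hold 2 or more. Of the 10 genes on the list, 8 have an entry, and the box is found in *Srf* and *Cnn2*. Only this exact form was searched for, so a box with another letter, or outside the window, was not seen. *Tagln* and *Myl9* have no entry. The second *Srf* box and the *Lima1* box have the same letters. Their RNA values were not tested against each other. *Srf* was 15.3% lower in siDerl1, and *Lima1*, which encodes an actin-bundling protein, had means of 74.3 ± 13.4 and 73.6 ± 16.7 TPM (SD, n = 3 each). *Actg1*, which encodes cytoplasmic gamma actin, had means of 1830 ± 43.8 and 1890 ± 165 TPM (SD, n = 3 each). A match of letters is a description of the window only.

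*Tagln*, which encodes the actin-binding protein transgelin (SM22alpha), was measured at 2.45, 1.95 and 1.91 TPM in siControl. In siDerl1 it was listed at 0 in sample 1 and was 1.21 TPM in sample 2 and 0.25 TPM in sample 3. All siDerl1 samples are below all siControl samples, and sample 2 is the nearest to them. The fitted difference was -1.14 on the log2(TPM + 1) scale (SE 0.33), and the same-numbered pairs differed by -1.79, -0.42 and -1.22. These are a description without a test, since this difference is what the list was chosen by. The siControl mean was 2.10 ± 0.301 TPM (SD, n = 3). With a mean of 1.3 TPM over all 6 samples, *Tagln* is just above the minimum of 1 TPM for testing, and only 151 of the 10331 genes tested (1.46%) have a mean at or below it. It passed that minimum through the siControl samples, so its presence among the genes tested already favors a difference.

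Values near 1 TPM were unsteady in these tables. Among the 422 genes tested with a mean TPM from 1 to under 2, 40 were listed at 0 in at least 1 sample. The median SD between siControl samples was 0.32 on the log2 scale for these genes and 0.13 for all genes tested. The SD of *Tagln* was 0.14 between siControl samples and 0.59 between siDerl1 samples. Of the same 422 genes, 22 (5.21%) had all siDerl1 samples below all siControl samples, as *Tagln* has, 26 had them all above, and 5 were past the study's lower limits. Without any 1 sample the difference of *Tagln* lay between -1.47 and -0.90, and with a pseudocount of 0.1 in place of 1 it was -2.61.

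The remaining smooth muscle genes were barely measured. *Acta2*, which encodes smooth muscle alpha actin, was 0.42 TPM in siControl 2 and was listed at 0 in the other 5 samples. *Cnn1*, which encodes calponin 1, an actin-binding protein that dampens myosin activity, was listed at 0 in siControl 1 and 3, was 0.27 TPM in siControl 2, and was 0.18, 0.14 and 0.17 TPM in siDerl1. *Tpm2*, which encodes beta tropomyosin, was 0.42, 0.31 and 0.23 TPM in siControl, was 1.25 and 0.32 TPM in siDerl1 1 and 2, and was listed at 0 in siDerl1 3. The groups overlap for all 3 genes, none of them reached the mean of 1 TPM, and no direction can be read. *Tpm2* is the nearest below that minimum, with a mean of 0.42 TPM over the 6 samples.

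*Myl9*, which encodes a regulatory light chain of smooth muscle and nonmuscle myosin, was measured at 7.34, 6.86 and 6.36 TPM in siControl and at 8.59, 9.48 and 6.09 TPM in siDerl1. The groups overlap, since siDerl1 3 is the lowest of all samples and the other siDerl1 samples are the highest. The difference was 0.19 (log2, SE 0.18) with a limma adjusted p of 0.892, and it was 0.07 without siDerl1 2 and 0.35 without siDerl1 3.

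*Tpm1*, which encodes alpha tropomyosin, a coiled coil that lies along the actin filament, was the most abundant of the list. It was measured at 129, 168 and 124 TPM in siControl and at 140, 144 and 128 TPM in siDerl1. Sample 2 was the highest in each group, and the groups overlap. The difference was -0.02 (log2, SE 0.12; limma adjusted p = 0.988), and its sign turned to 0.12 without siControl 2 and to 0.03 without siDerl1 3. The row sums 12 RefSeq transcripts, so a shift between muscle and nonmuscle forms would not be seen in it.

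*Actn1*, which encodes alpha-actinin 1, a crosslinker of actin filaments at stress fibers and adhesions, was measured at 62.6, 93.3 and 97.1 TPM in siControl and at 58.5, 73.4 and 84.4 TPM in siDerl1. The sample numbered 1 is the lowest of each group, by 0.60 in siControl and 0.42 in siDerl1 on the log2 scale against the mean of the other samples. The groups overlap, yet the siDerl1 sample is the lower in 3 of 3 pairs. The difference was -0.21 (log2) with an SE of 0.20, and an SE of 0.07 with the replicate block. The adjusted p by limma was 0.884 and 0.196 with the block. The size hangs on single samples, since the difference was -0.07 without siDerl1 1, -0.10 without siControl 3, -0.13 without siControl 2, -0.33 without siDerl1 3 and -0.41 without siControl 1, where *Actn1* was past the lower limits.

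*Vcl*, which encodes vinculin, the protein that couples adhesions to actin, was higher in siDerl1, opposite to *Srf*. It was measured at 4.77, 4.36 and 5.04 TPM in siControl and at 10.4, 6.65 and 6.01 TPM in siDerl1. All siDerl1 samples are above all siControl samples, and siDerl1 1 stands well above the other siDerl1 samples. The mean was 4.72 ± 0.342 and 7.68 ± 2.35 TPM (SD, n = 3 each), a ratio of 1.63, and the difference was 0.57 (log2, SE 0.21; 0.36 without siDerl1 1) with an adjusted p of 0.704 by limma and 0.197 with the block. An exact permutation test gave the smallest two-sided p possible, 0.1, which follows from the lack of overlap alone. *Vcl* was past the study's upper limits (a ratio above 1.5 with an unadjusted p under 0.05) in the full data, but not without siControl 1, siControl 2 or siDerl1 1.

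Counted together, 0 of the 6 genes of the list that could be tested had an adjusted p under 0.05, as had 0 of all 10331 genes (0.0%). Before adjustment 692 genes had a p under 0.05, 416 of them lower. By the study's limits *Vcl* was higher, and *Tagln* was lower, which for *Tagln* restates how the list was chosen and is no test. Over all genes 154 (1.49%) were lower and 74 (0.716%) higher. All siDerl1 samples were below all siControl samples for *Tagln* and *Srf*, as for 8.52% of all genes, and above them for *Vcl*, as for 5.09%. These counts include *Tagln*, whose difference the list was built on, so nothing is read from them. Without *Tagln*, the differences were negative for 3 and positive for 2 of the other 5 genes, with a median of -0.02, as over all genes.

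Most families to which these genes belong have an abundant member that is not on the list, and its values overlapped between the groups. Beta actin (*Actb*) had means of 6230 ± 432 and 6170 ± 302 TPM (SD, n = 3 each), whereas *Acta2* made up at most 0.00535% of the summed actin TPM of a sample. *Cnn3*, a calponin of nonmuscle cells, had 656 ± 27.0 and 655 ± 13.0 TPM (SD, n = 3 each). *Cnn1* was at most 0.0393% of the summed TPM of *Cnn1* and *Cnn3*, a sum that leaves out *Cnn2*. *Myl9* was 2.11% to 3.38% of the summed TPM of the regulatory light chains *Myl9*, *Myl12a* and *Myl12b*.

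The tropomyosin and actinin members carry a larger part of their families. *Tpm1* and *Tpm2* together were 15% to 17.9% of the tropomyosin sum, next to *Tpm4* at 482 ± 36.9 and 471 ± 37.9 TPM and *Tpm3* at 249 ± 5.50 and 256 ± 20.9 TPM (SD, n = 3 each). *Actn1* was 28.9% to 37.5% of the actinin sum, the rest being nearly all *Actn4* at 164 ± 11.8 and 149 ± 7.06 TPM (SD, n = 3 each). Transgelins had no such abundant relative. *Tagln2*, the form of many nonmuscle cells, was listed at 0 in siControl 1 and was 0.76 and 0.19 TPM in siControl 2 and 3 and 0.20, 0.16 and 0.19 TPM in siDerl1. *Tagln3*, the neuronal form, was listed at 0 in each siControl sample and in siDerl1 1, and was 0.21 and 1.02 TPM in siDerl1 2 and 3. Summed, the 3 transgelins reached 0.20 to 2.71 TPM.

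**Figure D2:**
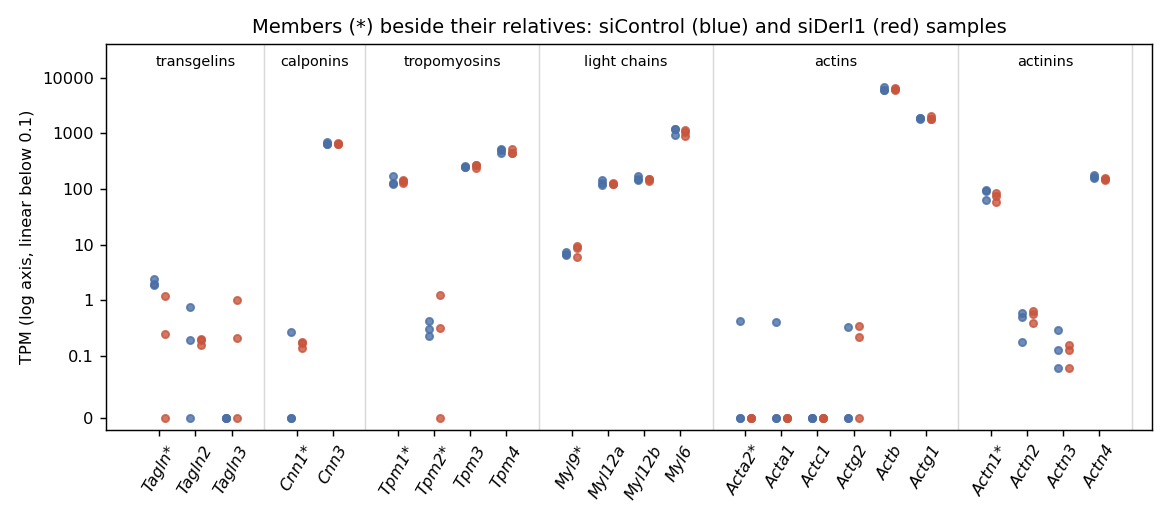
TPM of the members (starred) and their relatives (vertical axis, logarithmic above 0.1 and linear below) in each siControl (blue) and siDerl1 (red) sample, grouped by protein family. *Actb*, *Cnn3*, *Tpm4* and *Actn4* are in every sample the highest of their family among the genes plotted, which leave out *Cnn2*. *Myl6* is the highest of the light chains plotted, and all 3 transgelins lie under 3 TPM.

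Of the 19 relatives listed, 18 are in the tables and 11 were tested. None of these had an adjusted p under 0.05 or was past the study's limits, and the groups of all 11 overlapped. The differences were negative for 8 and positive for 3, with a median of -0.04, and those of *Actb* and *Cnn3* changed sign under median-of-ratios scaling. Among the most abundant, *Actb* differed by -0.01 (log2, SE 0.07), *Actg1* by 0.04 (SE 0.07) and *Myl6* by -0.09 (SE 0.13).

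Around the list, the partners of SRF, its other targets and genes of related pathways were counted in 6 lists, the relatives included. Of 102 names, 95 are in the tables and 73 were tested. None had an adjusted p under 0.05, 2 were past the study's lower limits (1.49% of all genes) and 0 past the upper ones (0.716%). The differences were negative for 52 and positive for 21 (71.2% negative, beside 54.8% of all genes), with a median of -0.07 beside -0.02. The medians of the same-numbered pairs were 0.01, -0.08 and -0.09, beside 0.01, -0.03 and -0.03 over all genes. All siDerl1 samples lay below all siControl samples for 5 genes (8.52% of all genes) and above for 2 (5.09%), so neither count stands out from all genes. With the replicate number as a block, 1 of the 73 genes, *Itgb1*, had an adjusted p under 0.05 and was lower, and 37 of all genes (0.358%) were lower by that rule. The *Itgb1* call was lost when the blocked fit had no filter or no trend, where 2 and 0 of all genes had such an adjusted p.

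**Figure D3:**
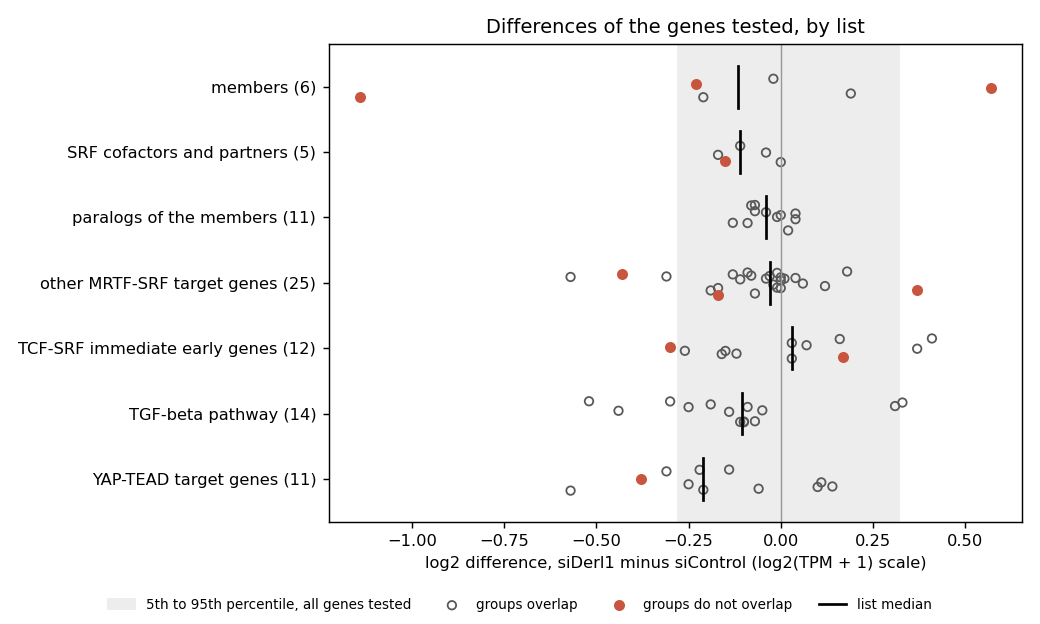
Difference of each gene tested between siDerl1 and siControl (horizontal axis, log2(TPM + 1) scale), by list, with the number tested in parentheses. Filled points are genes whose groups do not overlap, bars are list medians (that of the members includes *Tagln*), and the gray band runs from the 5th to the 95th percentile of all genes tested (-0.28 to 0.32). *Tagln*, *Vcl* and genes of 4 wider lists, such as *Ctgf*, *Itgb1*, *Eng* and *Junb*, lie outside it. With 1 sample left out *Ctgf* ran from -1.28 to -0.10 and *Junb* from 0.19 to 0.78, so both could also lie inside the band.

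Among the cofactors and partners of SRF, the MRTF genes and their repressor *Scai* were not analysed here. The TCF gene *Elk3* had means of 27.7 ± 1.45 and 24.8 ± 0.987 TPM (SD, n = 3 each), with all siDerl1 samples lower and an adjusted p of 0.774. *Elk1*, another TCF gene, had means of 42.1 ± 5.04 and 40.8 ± 1.5 TPM, and *Fhl1*, a LIM-domain gene, 60.9 and 61.0 TPM. All 5 genes tested in this list had a negative difference, *Fhl1* by less than 0.01, with a median of -0.11. The sign did not hold in each pair, since the medians of the same-numbered pairs were 0.01, -0.08 and -0.12. Myocardin (*Myocd*), the cofactor of smooth muscle, was under the minimum for testing.

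Among 25 tested genes commonly cited as other MRTF-SRF targets, 19 had a negative and 6 a positive difference (median -0.03). *Itgb1*, which encodes integrin beta 1, the common chain of many matrix receptors, was measured at 381, 396 and 392 TPM in siControl and at 285, 290 and 293 TPM in siDerl1. The gap between the groups is far wider than the spread within either, and the means were 390 ± 7.46 and 289 ± 3.96 TPM (SD, n = 3 each), a ratio of 0.742. The difference was -0.43 (log2, SE 0.05), between -0.44 and -0.42 without any 1 sample, with a limma adjusted p of 0.332, and 0.00884 with the block. That call was lost when the blocked fit had no filter (adjusted p = 0.104) or no trend (adjusted p = 0.229). *Itga5*, which encodes a partner chain of integrin beta 1, went the other way, at 6.85, 5.90 and 4.58 TPM in siControl and 8.50, 7.01 and 7.61 TPM in siDerl1. The groups do not overlap, with an adjusted p of 0.763. Filamin A (*Flna*), a crosslinker of actin that also binds integrins, had means of 97.7 ± 9.11 and 86.7 ± 4.67 TPM with groups that do not overlap and an adjusted p of 0.764. *Wdr1*, a cofactor of cofilin, had means of 182 and 188 TPM.

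**Figure D4:**
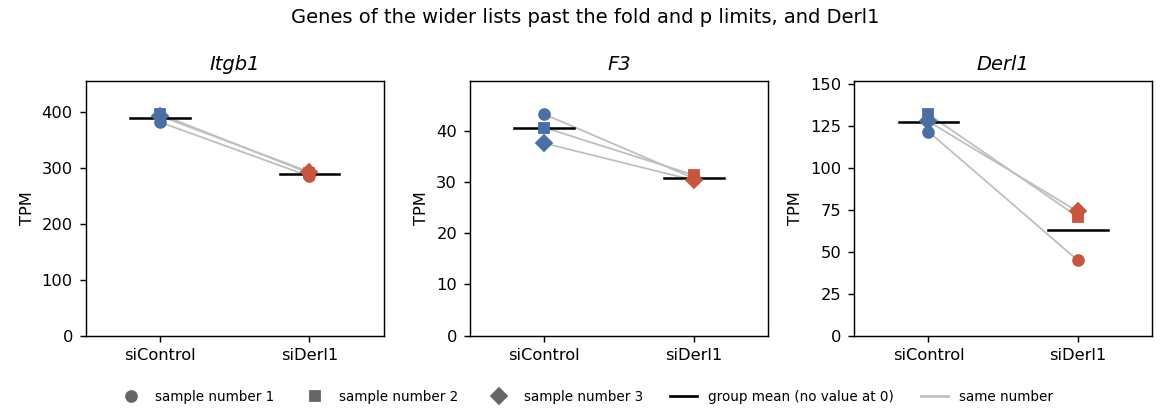
TPM (vertical axes, linear from 0) of the 2 genes of the wider lists past the study's limits, and of *Derl1*, in siControl (blue) and siDerl1 (red) samples, with symbols by sample number, lines between samples of the same number and bars at the group means. *Itgb1*, *F3* and *Derl1* do not overlap between groups.

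Of the 12 immediate early genes tested, which SRF drives with TCFs, 5 differences were negative and 7 positive, with a median of 0.03. *Mcl1*, which encodes an antiapoptotic protein, was measured at 144, 149 and 140 TPM in siControl and at 116, 115 and 119 TPM in siDerl1. The groups do not overlap, and the ratio of means (0.809) was just short of the study's limit, with an adjusted p of 0.622. *Egr2* was above siControl in all siDerl1 samples, at 1.39 ± 0.0600 and 1.70 ± 0.215 TPM (adjusted p = 0.925). *Junb* had means of 91.3 and 126 TPM and *Nr4a1* of 99.5 and 89.5 TPM, with overlapping groups.

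Transforming growth factor beta is known to raise smooth muscle genes. All 14 of its pathway genes in the tables were tested, 12 with a negative and 2 with a positive difference, with a median of -0.10, and all overlapped between groups. The ligand genes *Tgfb1* and *Tgfb2* had means of 42.7 and 40.0 TPM and of 60.3 and 56.5 TPM, and the shared mediator *Smad4* of 56.6 and 53.1 TPM. Of 11 tested genes of the YAP-TEAD pathway, which also reads tension, 8 differences were negative and 3 positive (median -0.21). The medians of the same-numbered pairs were 0.04, -0.15 and -0.34, so pair 1 did not share the sign. *Yap1* itself was under the minimum for testing, at 0.14 TPM in siDerl1 2 and listed at 0 in the other samples. *F3*, which encodes tissue factor, was measured at 43.2, 40.6 and 37.6 TPM in siControl and at 30.7, 31.4 and 30.3 TPM in siDerl1. All siDerl1 samples are lower, the ratio of means was 0.761, past the study's limit, and the difference was -0.38 (log2, SE 0.08) with an adjusted p of 0.669 by limma. *Axl*, *Amotl2* and *Wwtr1*, the most abundant of this list, had overlapping groups.

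For many of these genes the samples numbered 1 differed from numbers 2 and 3 in both groups. This held for 44 of the 73 genes of the wider lists (60.3%), counting genes in which number 1 deviated the same way in siControl and siDerl1 and by more than the groups differed, against 39.1% of all genes. Among the 6 tested genes of the list itself it held for *Actn1* alone. *Cyr61*, a secreted matricellular gene of both the SRF and YAP lists, was 5.33, 21.7 and 15.8 TPM in siControl and 5.61, 13.8 and 11.8 TPM in siDerl1. *Ctgf*, its relative, was 0.62, 7.35 and 5.07 TPM and 1.04, 2.18 and 2.89 TPM. In both genes number 1 is the lowest of its group, and the groups overlap. *Mylk*, which encodes the kinase of myosin light chains, ran the other way, at 35.2, 22.3 and 18.8 TPM and at 36.9, 20.7 and 19.2 TPM. *Fos* was also highest in number 1, at 57.0 TPM in siControl and 65.4 TPM in siDerl1. What the numbers stand for was not tested.

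**Figure D5:**
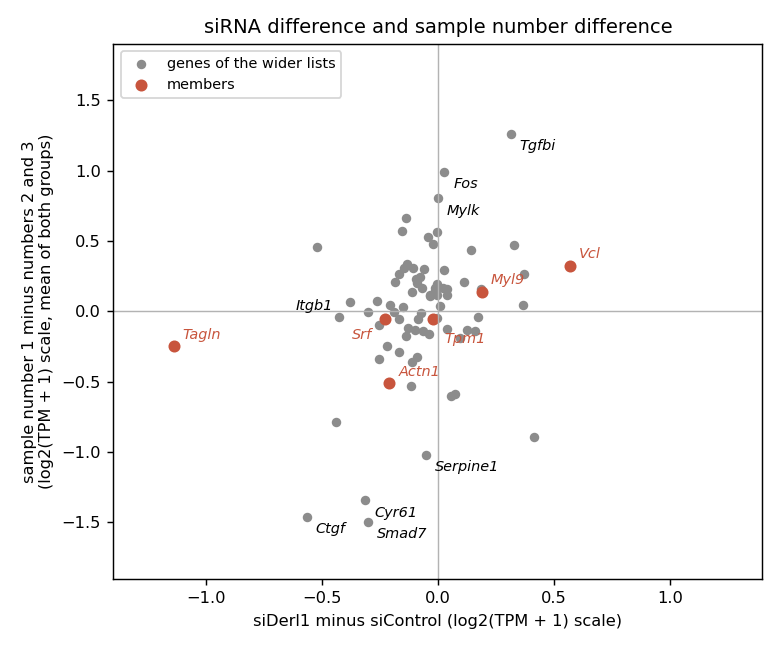
Difference between siDerl1 and siControl (horizontal axis) against the difference of sample number 1 from the mean of numbers 2 and 3, averaged over both groups (vertical axis), both on the log2(TPM + 1) scale. Gray points are the 73 genes of the wider lists and red points the 6 members tested. *Ctgf*, *Cyr61* and *Smad7* are low and *Tgfbi*, *Fos* and *Mylk* high in number 1, and *Ctgf* is also among the points farthest from 0 along the horizontal axis, with *Tagln* and *Vcl*.

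The genes whose values ran most like those of *Tagln* over the 6 samples were *Hpcal1*, *Septin9*, *Rassf1*, *Numb* and *Ppp1r8*, with Pearson's r of 0.990, 0.988, 0.987, 0.986 and 0.976 on the log2(TPM + 1) scale. With 6 samples in 2 groups, such values are a description, and they were picked from all genes tested, of which 32 reach 0.95. *Numb*, a determinant of asymmetric division that dampens Notch, was 24.0, 24.1 and 23.0 TPM in siControl and 18.5, 21.4 and 19.4 TPM in siDerl1, with siDerl1 1 the lowest, as for *Tagln*. Within the list, r with *Tagln* was 0.884 for *Srf*, 0.361 for *Actn1*, 0.0941 for *Tpm1*, -0.176 for *Myl9* and -0.852 for *Vcl*. The points share the groups and the samples' totals, so these values largely restate which genes were lower or higher in siDerl1.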

How the data were processed

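Reads of strand-specific poly(A) libraries were trimmed by the authors (Trimmomatic 0.39), aligned to rn6 (STAR 2.7.3a) and quantified per gene (RSEM 1.3.2), per the submitters' processing notes and the methods. The values the authors deposited are TPM per gene, and each sample has the same sum. TPM keeps no depth, and reads shared by paralogs (the actins and tropomyosins) may be split among them. The authors' own tests used edgeR 3.28.1 on values not used here.

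Differences were computed with limma 3.58.1 (R 4.3.3; lmFit, eBayes with trend) on log2(TPM + 1) for the 10331 genes whose mean TPM reached 1, with Benjamini-Hochberg adjustment over all of them. A fold change on this scale understates that of low genes. The study's limits (a fold change above 1.5 or below 0.8 and an unadjusted p under 0.05, set for its edgeR tests) were applied here to the ratio of mean TPM and the limma p. The genes past them therefore need not be the study's. The study's own list, from these same samples, has *Vcl* and *Gfap* among the genes higher in siDerl1. Single genes were also compared by an exact two-sided permutation test. It gave a p of 0.4 for *Myl9* and *Actn1* and of 0.9 for *Tpm1*. Nothing says that the samples of a group came from separate cultures, so p values measure the spread between samples.

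The members and the gene lists were chosen with earlier results of these data known. Named genes are the members, some of their relatives, in each wider list the genes past the study's limits and the 3 most abundant, and the 5 most like *Tagln*. Of the cell type markers only some are named. Genes named for groups that do not overlap or for their difference in number 1 (*Elk3*, *Mcl1*, *Ctgf* and others), and the promoters shown, were picked after their values were seen. Some genes and 1 gene list are not reported here.

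Same-numbered siControl and siDerl1 samples deviated together from their group means, with correlations of 0.697, 0.353 and 0.507 across genes, and the numbers were therefore treated as pairs in the fit with a replicate block. Number 1 stood apart, while numbers 2 and 3 were hardly separated, since siControl 2 with siDerl1 3 gave 0.345 and siControl 3 with siDerl1 2 gave 0.248. Both samples numbered 1 stood apart on the leading principal component, which held 55.7% of the variance. One row had a date as its symbol and was read as *Septin9* from its RefSeq identifiers. All 9 members matched the RefSeq table by identifier. The counts of calls and the differences of the members, *Derl1*, *Itgb1*, *F3* and 12 other named genes were recomputed with a pseudocount of 0.1, without the filter, with a minimum mean TPM of 5, after median-of-ratios scaling, without the trend, with the replicate block and without each sample in turn.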

Additional observations from a re-analysis of the deposited data

How the results depend on the processing

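*Srf*, *Vcl*, *Actn1* and *Myl9* kept their direction under all alternatives run. The difference of *Tagln* lay between -2.61 and -0.90 and was negative in each, but under a mean TPM of at least 5 it was not tested, which leaves 0 members past the lower limits. The difference of *Tpm1* ran from -0.10 to 0.12 with 1 sample left out, and turned positive without siControl replicate 2 (0.12) and without siDerl1 replicate 3 (0.03). Differences near 0 of abundant relatives and of *Lima1* also changed sign. With 1 sample left out, *Actb* ran from -0.05 to 0.04, *Cnn3* from -0.02 to 0.03, *Actg1* from -0.03 to 0.08, *Myl6* from -0.20 to 0.02 and *Lima1* from -0.20 to 0.12, and median-of-ratios scaling gave 0.00 for *Actb* and 0.01 for *Cnn3*. With 1 sample left out, 1 to 2 members were past the lower limits (2 without siControl replicate 1) and 0 to 1 past the upper. *Tagln* was past the lower limits each time. Its difference is what the list was chosen by, so nothing is read from that count. In the wider lists, with 1 sample left out, 2 to 5 genes were past the lower limits (5 without siControl replicate 1, 4 without siControl replicate 3). There 0 to 1 were past the upper limits (1 without siControl replicate 1 or siDerl1 replicate 1). Over all genes 125 to 262 were lower (262 without siControl replicate 1) and 59 to 118 higher (118 without siDerl1 replicate 1). No filter gave 158 genes higher, and a mean TPM of at least 5 gave 30.

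With the replicate block, 266 genes were lower and 171 higher by the limits, and 57 had an adjusted p under 0.05, 1 of them (*Itgb1*) in the wider lists. The block also put *Ltbp1* of the TGF-beta pathway and the marker *Pdgfra* past the lower limits, and besides *Derl1* and *Gfap*, both with an adjusted p under 0.05, it changed no other call of the genes named. These counts hang on the variance model, and the adjusted p values of *Itgb1*, *Derl1* and *Gfap* were over 0.05 in both added fits below. With the block and no filter, a pair of settings added after seeing the data, 2 of all genes and 0 of the wider lists had an adjusted p under 0.05, and with the block and no trend, also added, 0 and 0. By the limits these gave 331 lower and 272 higher (5 and 1 in the wider lists), and 305 lower and 177 higher (4 lower in the wider lists).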
